A study of Mus musculus with 12 samples.

Results

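Enteroendocrine cells are the hormone-secreting cells of the gut epithelium. The 9 genes examined here cover their secretory and transcriptional machinery: the granins Chga and Chgb, the serotonin enzyme Tph1, and the transcription factors Neurog3, Neurod1, Pax4, Pax6, Nkx2-2 and Isl1. They were taken as the rows of the deposited gene tables whose Ensembl identifier maps to these symbols, 9 of 55487 genes, and the rule used no measured value. All 9 passed the filter on low counts and were among the 19581 genes tested.

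RNA was sequenced from C57BL/6 mice, aged between 6 and 10 weeks, in 4 groups of 3 libraries. SI tissue and LI tissue were crypts freshly isolated from the small and the large intestine, with 1 mouse per library. SI monolayers and LI monolayers were intestine-derived epithelial cultures grown for 24 h without a screened drug, with pooled wells per library. The sources do not say whether those wells came from separate mice. The monolayers were seeded with crypts of the jejunum or the large intestine. Per the methods, the medium used at seeding carried Wnt, EGF, R-spondin and small-molecule inhibitors. The medium that followed carried Wnt, EGF, Noggin and R-spondin. LI crypts were released with an enzymatic digestion that SI crypts did not receive, so region and isolation cannot be told apart. The study built the monolayers to compare drug toxicity between the regions, and the comparisons below ask how the endocrine genes of each tissue stood after culture. These are bulk libraries, in which fewer endocrine cells and less RNA per cell cannot be told apart. The paper also stained and counted enteroendocrine cells by ChgA protein in monolayers of both regions at 24 h, and those counts were not used here.

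Granins are acidic proteins that help to pack peptide hormones and amines into dense-core secretory granules, and chromogranin A is the usual histological marker of enteroendocrine cells. In enterochromaffin cells, tryptophan hydroxylase 1 (Tph1) carries out the rate-limiting step of serotonin synthesis in the gut. Endocrine cells arise from crypt progenitors that switch on Neurog3 for a short time. Neurod1 acts downstream of Neurog3, while Pax4, Pax6, Nkx2-2 and Isl1 direct the choice between the hormone-producing lineages and their upkeep.

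The promoters of Chga, Tph1 and Neurog3 are shown because these genes carry the main contrast: in LI monolayers Chga and Tph1 rose and Neurog3 fell. Each is the stretch of 250 bases before a RefSeq transcription start (GRCm38.p6), written 5′ to 3′ in the direction of the gene. The Chga stretch is chr12:102554691-102554940 on the plus strand. The Tph1 stretch, before the upstream of its annotated starts, is chr7:46672538-46672787 on the minus strand. The Neurog3 stretch is chr10:62132840-62133089 on the plus strand. No annotated exon overlaps these 3 stretches. Capitals mark the letters TGACGT (the core of the cAMP response element) or CANNTG (the E-box, which basic helix-loop-helix factors such as Neurog3 and Neurod1 bind) on either strand.
Chga: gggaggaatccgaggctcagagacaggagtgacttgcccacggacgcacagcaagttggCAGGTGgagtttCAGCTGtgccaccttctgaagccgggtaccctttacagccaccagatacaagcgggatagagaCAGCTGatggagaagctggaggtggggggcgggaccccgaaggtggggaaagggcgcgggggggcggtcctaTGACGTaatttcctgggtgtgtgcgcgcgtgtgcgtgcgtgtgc
Tph1: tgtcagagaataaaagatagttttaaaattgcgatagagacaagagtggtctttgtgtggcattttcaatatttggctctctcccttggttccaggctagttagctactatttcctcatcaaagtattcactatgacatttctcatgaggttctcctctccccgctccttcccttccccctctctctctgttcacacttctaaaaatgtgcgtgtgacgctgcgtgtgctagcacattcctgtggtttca
Neurog3: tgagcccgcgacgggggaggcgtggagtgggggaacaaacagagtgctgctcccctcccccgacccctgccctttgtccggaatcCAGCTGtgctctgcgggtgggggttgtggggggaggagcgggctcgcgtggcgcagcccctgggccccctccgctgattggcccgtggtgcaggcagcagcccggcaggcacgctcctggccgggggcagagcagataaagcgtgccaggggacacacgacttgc
The Chga stretch held TGACGT with its first base at -44 from the start, and CANNTG at -191, -179 and -116. The Neurog3 stretch held CANNTG once, at -165, and the Tph1 stretch held none of these letters. Of all 32851 mouse promoters in the RefSeq table, 6.47% held TGACGT and 66.2% held CANNTG in a stretch of this length. The palindrome TGACGTCA, in which TGACGT lies on both strands, was found in 1.55% of promoters. Among the other members it stood at -72 in Chgb and at -76 in the upstream promoter of Pax6, while TGACGT alone stood at -59 in Isl1 and at -48 in the downstream promoter of Pax6. CANNTG was also found in Neurod1, Chgb, Nkx2-2, Isl1 and the downstream promoter of Pax6. All 250 bases of the Chgb stretch and of the downstream Pax6 stretch lie in annotated exons. The overlap was 149 bases for Neurod1, 53 for Nkx2-2 and 1 for Isl1. The TATAAA box (12.4% of promoters) was found in none of the 10 promoters of the 8 members with an entry, and TAATTA (4.84%) was found in the downstream promoter of Tph1. The search for TGACGT was added after the sequences had been seen, and a match describes letters, not a bound site.

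Libraries held 59016196 to 76216530 counts (median 69256790). A count of 0 leaves room for up to 3 counts by counting error alone, or 0.0394 to 0.0508 CPM (counts per 1e6 counts of a library) in these libraries. In each library 73.4% to 77.4% of the counts from 1 to 20 were even numbers, and the sources do not state whether both mates of a pair were counted. Mitochondrial transcripts took 9.16% of the counts of SI tissue library 1, the highest share of the 12 libraries, against 5.92% and 4.56% in the other libraries of SI tissue. The share was lower after culture in both regions: it was 0.472% to 0.559% in the monolayers of SI, and 0.704% to 0.750% in those of LI, where the tissue held 2.25% to 2.59%. Its part in the changes in culture was not tested. SI tissue library 1 was also the highest of SI tissue for Chga, Chgb, Tph1, Neurog3, Neurod1 and Nkx2-2, and results that changed without it are given as such. The 9 genes together took 615 ± 35.9 CPM in LI monolayers against 137 ± 19.3 CPM in LI tissue, and 411 ± 11.0 CPM in SI monolayers against 309 ± 86.4 CPM in SI tissue (mean ± SD, n = 3, as for every group value below). Most of each sum was Chgb and Chga, which took 368 ± 19.4 and 193 ± 10.4 CPM in LI monolayers. In LI tissue they took 79.4 ± 11.8 and 38.9 ± 4.27 CPM.

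Levels differed widely between the genes and kept part of their order in culture. Levels between genes are compared in TPM, which scales the counts by the length of each gene's exons. Chgb stood highest, Chga next and Tph1 after Chga in all 4 groups, with no overlap between neighbouring genes of these 3 in any group. In SI tissue Chgb stood at 165 ± 44.4 TPM, Chga at 77.5 ± 20.3 TPM and Tph1 at 6.16 ± 1.84 TPM. The transcription factors of SI tissue lay between Neurog3, with 3.83 ± 0.650 TPM, and Pax6, with 0.349 ± 0.0507 TPM. Neurog3 was thus the most abundant of the 6 transcription factors in SI tissue, although its libraries overlapped with those of Neurod1 (3.43 ± 1.17 TPM). Nkx2-2 overlapped with Isl1 and Isl1 with Pax4 in that order. In SI monolayers and in LI tissue Neurod1 and Neurog3 were again neighbours whose libraries overlapped. In LI monolayers Neurog3 was lowest of the 9 genes, with 0.180 ± 0.0611 TPM, and overlapped there with Pax6 (0.266 ± 0.0729 TPM), while Neurod1 led the transcription factors with 3.41 ± 0.230 TPM.

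**Figure D1:**
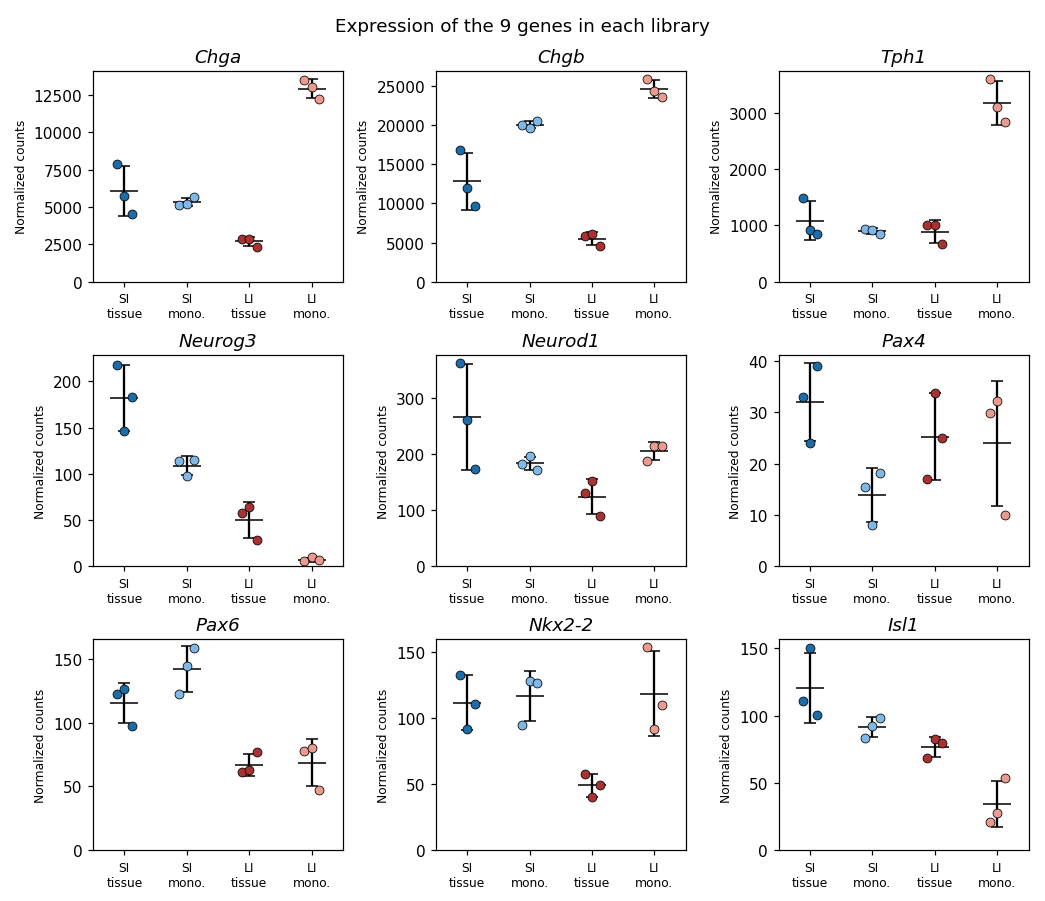
Normalized counts (vertical axes, linear and starting at 0, a separate scale for each gene) of the 9 genes in the 12 libraries. Each point is 1 library, the wide line is the group mean and the bars are ± 1 SD (n = 3). Chga, Chgb and Tph1 are highest in LI monolayers, where Neurog3 is lowest, with 4.81 to 9.18 normalized counts.

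Genes were called differentially expressed with a Benjamini-Hochberg adjusted p under 0.05 over all tested genes in edgeR's quasi-likelihood test, together with a log2 fold change of 1 or more in either direction. In LI monolayers against LI tissue, 4 of the 9 genes were called higher (Chga, Chgb, Tph1 and Nkx2-2) and 2 lower (Neurog3 and Isl1), where 14.5% of all tested genes were called higher and 23.5% lower. In SI monolayers against SI tissue, 0 of 9 were called, where 9.71% of all tested genes were called higher and 16.4% lower. DESeq2 also called 0 of the 9 genes in SI, limma-trend called 1 (Pax4), and 4 of the 9 had an unadjusted p under 0.05 in edgeR's test, which 63.2% of all tested genes had. In SI tissue against LI tissue, 5 of 9 were called higher (Chga, Chgb, Neurog3, Neurod1 and Nkx2-2) and 0 lower, where 11.6% of all tested genes were called higher and 11.1% lower. In SI monolayers against LI monolayers, 3 of 9 were called higher (Neurog3, Pax6 and Isl1) and 2 lower (Chga and Tph1), where 12.4% of all tested genes were called higher and 8.88% lower. The interaction asks whether the change in culture differed between the regions, as the change in SI minus the change in LI. There 1 of the 9 was called higher (Neurog3) and 5 lower (Chga, Chgb, Tph1, Neurod1 and Nkx2-2), where 11.4% of all tested genes were called higher and 8.51% lower. The median log2 fold change of the 9 genes was -0.23 in SI and 0.78 in LI monolayers against tissue, beside -0.05 over all tested genes in each. The comparisons share groups, so their values are given side by side and not as independent results. With 3 libraries against 3, an exact permutation test of a single value cannot go below p = 0.1 (two-sided), so the p-values come from the model fitted across all genes.

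**Figure D2:**
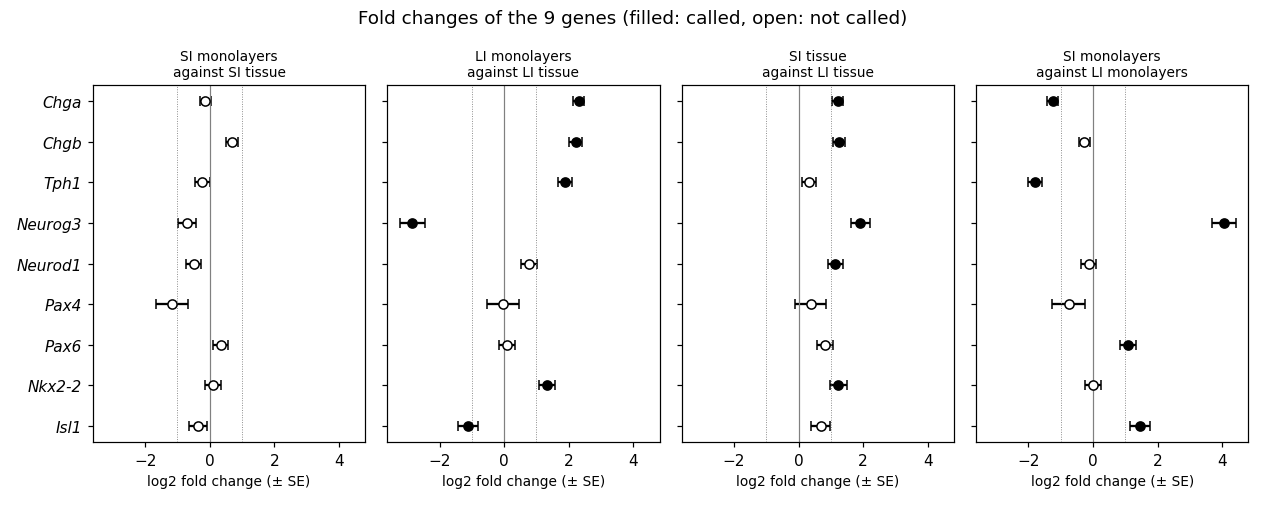
Log2 fold changes (horizontal axis) of the 9 genes in the 4 comparisons of groups, with bars of ± 1 SE. Filled points were called and open points were not, and the dotted lines mark log2 fold changes of -1 and 1. In LI monolayers against LI tissue Chga (2.31), Chgb (2.21) and Tph1 (1.88) lie on one side and Neurog3 (-2.85) on the other, whereas all 9 points of SI monolayers against SI tissue are open.

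Both granins rose in LI monolayers. Chga (ENSMUSG00000021194.6, chr12:102554969-102565028, plus strand, GRCm38) encodes chromogranin A. Its normalized counts were 2886, 2863 and 2326 in LI tissue and 13492, 13003 and 12250 in LI monolayers. In SI they were 7881, 5759 and 4548 in tissue and 5164, 5230 and 5658 in monolayers. The LI monolayers were above every other library and the LI tissue below every other, while tissue and monolayers of SI overlapped. Chga was 4.96-fold higher in LI monolayers than in LI tissue (log2 fold change 2.31, SE 0.18, edgeR adjusted p = 1e-06). In SI the log2 fold change was -0.14 (SE 0.17, edgeR adjusted p = 0.493), and it became 0.09 without SI tissue library 1. The changes differed between the regions by -2.45 (SE 0.24, edgeR adjusted p = 2.26e-05). The order of the regions turned with culture: Chga was 2.32-fold higher in SI than in LI tissue (log2 fold change 1.21, edgeR adjusted p = 0.000195) and 2.37-fold lower in SI than in LI monolayers (log2 fold change -1.24, edgeR adjusted p = 0.000162). Without SI tissue library 1 the tissue difference was 0.98 on the log2 scale, under the fold minimum.

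Chgb (ENSMUSG00000027350.8, chr2:132781278-132795079, plus strand) encodes chromogranin B, also called secretogranin I. It had 5895, 6068 and 4514 normalized counts in LI tissue and 25877, 24390 and 23632 in LI monolayers. SI tissue had 16876, 11927 and 9678, and SI monolayers had 20035, 19640 and 20558. The monolayers were above the tissue in both regions without overlap. Chgb rose 4.64-fold in LI (log2 fold change 2.21, SE 0.19, edgeR adjusted p = 3.01e-06). In SI its log2 fold change was 0.68 (SE 0.18, edgeR adjusted p = 0.00921), short of the fold minimum, and the changes differed between the regions by -1.53 (SE 0.26, edgeR adjusted p = 0.000924). Chgb was 2.40-fold higher in SI than in LI tissue (edgeR adjusted p = 0.000262), and between the monolayers the log2 fold change was -0.27 (SE 0.18, edgeR adjusted p = 0.257), with each SI library below each LI library.

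The granins did not keep 1 ratio to each other. Within libraries, the log2 ratio of Chgb to Chga (in CPM) was 1.08 ± 0.03 in SI tissue, 1.02 ± 0.06 in LI tissue and 0.93 ± 0.02 in LI monolayers. In SI monolayers it was 1.91 ± 0.05, and the lowest SI monolayer library (1.86) was above the highest library of any other group (1.10). This separation is given as a description, with no test.

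Tph1 (ENSMUSG00000040046.14, chr7:46644641-46672537, minus strand) had 1000, 1006 and 662 normalized counts in LI tissue and 3593, 3090 and 2828 in LI monolayers. The values of SI were 1478, 923 and 841 in tissue and 941, 920 and 840 in monolayers. LI monolayers stood above all other libraries, and the 3 other groups overlapped with each other. Tph1 rose 3.69-fold in LI (log2 fold change 1.88, SE 0.23, edgeR adjusted p = 3.17e-05), whereas in SI the log2 fold change was -0.23 (SE 0.22, edgeR adjusted p = 0.417), or 0.07 without SI tissue library 1. The changes differed by -2.11 (SE 0.32, edgeR adjusted p = 0.000375). The tissues differed by 0.32 (SE 0.22, edgeR adjusted p = 0.265), while SI monolayers were 3.46-fold below LI monolayers (edgeR adjusted p = 8.07e-05). Relative to Chga, the log2 ratio of Tph1 was -1.61 ± 0.17 in LI tissue and -2.03 ± 0.11 in LI monolayers, against -2.50 ± 0.13 in SI tissue and -2.57 ± 0.16 in SI monolayers, so that LI libraries held more Tph1 per Chga than SI libraries, in tissue and in monolayers.

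Mast cells of rodents also carry Tph1, so the markers of that cell type are given beside it. Of 11 mast cell markers tested, 10 fell in LI monolayers and 1 (Cma1) rose, where 23.5% of all tested genes were called lower and 14.5% higher. Their summed level was 29.3 to 31.3 CPM in LI monolayers against 74.3 to 79.3 CPM in LI tissue, and in the monolayers Fcer1a, the alpha chain of the IgE receptor, was at 0 in all libraries. The sums rest mainly on Kit in LI tissue (3205 ± 332 normalized counts, 605 ± 62.0 in the monolayers of LI) and on Cma1 in LI monolayers (1337 ± 28.1, against 215 ± 66.7 in LI tissue). The mast cell proteases Mcpt1 and Mcpt2 changed by -5.02 and -5.93 on the log2 scale there. In SI 2 of the 11 rose and 3 fell, where 9.71% of all tested genes were called higher and 16.4% lower. The summed level in SI was 53.4 to 94.7 CPM in tissue and 49.2 to 54.8 CPM in monolayers. Tph1 was thus highest in the group in which Mcpt1 and Mcpt2 were lowest and Cma1 highest, and the part of mast cells in its level was not tested.

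Neurog3 moved against the granins in LI. Neurog3 (ENSMUSG00000044312.4, chr10:62133090-62134763, plus strand) encodes neurogenin 3, the factor that commits crypt progenitors to the endocrine fate. In LI tissue it had 57.3, 64.1 and 27.7 normalized counts and in LI monolayers 4.81, 9.18 and 5.92, from deposited counts of 5, 8 and 6. In SI tissue it had 218, 146 and 183 and in SI monolayers 114, 97.0 and 115. The 4 groups did not overlap, in the order SI tissue, SI monolayers, LI tissue, LI monolayers. Neurog3 was 7.23-fold lower in LI monolayers than in LI tissue (log2 fold change -2.85, SE 0.39, edgeR adjusted p = 5.87e-06). In SI the log2 fold change was -0.71 (SE 0.28, edgeR adjusted p = 0.0374), which did not reach the fold minimum. The decrease was larger in LI by 2.14 on the log2 scale (SE 0.48, edgeR adjusted p = 0.00168). SI exceeded LI 3.77-fold in tissue (edgeR adjusted p = 3.65e-05) and 16.7-fold in monolayers (edgeR adjusted p = 1.55e-07).

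Relative to Chga, Neurog3 lay on the log2 scale at -5.02 ± 0.35 in SI tissue, -5.78 ± 0.45 in LI tissue and -5.60 ± 0.12 in SI monolayers. In LI monolayers the ratio was -10.59 ± 0.39. LI monolayers thus combined the highest Chga with the lowest Neurog3 of the 4 groups. The other transcription factors lay lower against Chga in LI monolayers than in LI tissue. Group means were -8.59 against -5.09 for Isl1, -9.11 against -6.67 for Pax4 and -7.55 against -5.29 for Pax6 (log2 ratio, with no test). They were -5.96 against -4.45 for Neurod1 and -6.78 against -5.73 for Nkx2-2. Chga itself rose by 2.31 on the log2 scale in LI, so any gene that rose less lies lower in this ratio. The median log2 fold change of all tested genes there was -0.05, so most of them lie lower too. By its own level in LI, Nkx2-2 was called higher (log2 fold change 1.33) and Isl1 lower (-1.12). Neurod1 (0.78), Pax6 (0.08) and Pax4 (-0.04) were not called. With a prior count of 0.5 in place of 2 the ratio of Neurog3 in LI monolayers was -10.87. Fam241b lies on the opposite strand and shares 273 exon bases with Neurog3. It had 1080 to 2032 normalized counts in the 12 libraries, and the strand setting of the counting is not given in the sources used here, so reads of both genes cannot be told apart in the shared bases.

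**Figure D3:**
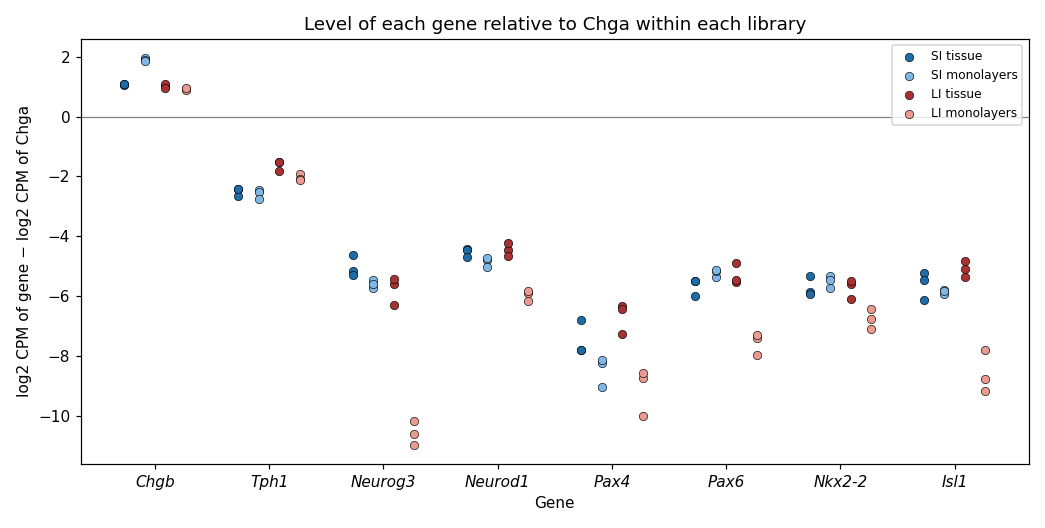
Log2 CPM of each gene minus log2 CPM of Chga in the same library (vertical axis), for the 12 libraries in 4 colours by group. Chgb lies above 0 and all other genes below it. The SI monolayers stand above the other groups for Chgb, and the LI monolayers lie lowest for Neurog3, with a mean of -10.59.

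Neurod1 (ENSMUSG00000034701.9, chr2:79452521-79456751, minus strand), which encodes a basic helix-loop-helix factor required for secretin and cholecystokinin cells, did not follow Neurog3. In LI tissue it had 131, 152 and 89.3 normalized counts and in LI monolayers 188, 215 and 214. In SI tissue it had 363, 261 and 174 and in SI monolayers 182, 196 and 171. The libraries of LI monolayers were above those of LI tissue, and those of SI overlapped. The log2 fold change was 0.78 in LI (SE 0.24, edgeR adjusted p = 0.00906) and -0.50 in SI (SE 0.23, edgeR adjusted p = 0.079), and neither was called. Their difference was called (-1.28, SE 0.34, edgeR adjusted p = 0.00531), although it was -0.99 without SI tissue library 1. Neurod1 was 2.20-fold higher in SI than in LI tissue (edgeR adjusted p = 0.000739), a call that was lost without SI tissue library 1 (log2 fold change 0.85) or LI tissue library 3 (0.95). Between the monolayers the log2 fold change was -0.14 (SE 0.24, edgeR adjusted p = 0.667). Cerkl shares 201 exon bases with Neurod1 on the same strand and had at most 12.9 normalized counts in any library. Gm26755, which shares 154 exon bases on the opposite strand, was not analysed here.

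Nkx2-2 (ENSMUSG00000027434.11, chr2:147177546-147194243, minus strand) is a homeobox factor of the endocrine lineage. Its normalized counts were 57.3, 40.3 and 49.1 in LI tissue and 154, 91.8 and 110 in LI monolayers. They were 133, 91.7 and 110 in SI tissue and 95.02, 128.2 and 126.7 in SI monolayers. LI tissue was below all other libraries, and the 3 other groups overlapped. Nkx2-2 rose 2.51-fold in LI (log2 fold change 1.33, SE 0.26, edgeR adjusted p = 0.000259), and its log2 fold change in SI was 0.10 (SE 0.25, edgeR adjusted p = 0.752). The tissues differed 2.35-fold (edgeR adjusted p = 0.000774), whereas the monolayers differed by 0.00 on the log2 scale (SE 0.25, edgeR adjusted p = 0.999). The interaction was -1.23 (SE 0.36, edgeR adjusted p = 0.0102) and was not called without SI monolayer library 1 (-0.99) or LI monolayer library 1 (-0.88). The antisense gene Nkx2-2os, which shares 278 exon bases with it, had at most 1.98 normalized counts, and 6430503K07Rik, which overlaps it on the opposite strand but shares no exon bases, had at most 9.15.

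Isl1 (ENSMUSG00000042258.13, chr13:116298281-116309689, minus strand), a LIM homeobox factor of several hormone lineages, fell in LI with Neurog3. In LI tissue it had 68.6, 82.4 and 79.4 normalized counts and in LI monolayers 21.2, 27.5 and 53.4. SI tissue held 111, 150 and 101, and SI monolayers held 83.5, 92.6 and 98.5. The monolayers were below the tissue in both regions without overlap, by little in SI. Isl1 was 2.18-fold lower in LI monolayers than in LI tissue (log2 fold change -1.12, SE 0.31, edgeR adjusted p = 0.00398), and without LI monolayer library 1 the value was -0.94, under the fold minimum. Without LI monolayer library 3, the highest of its group, the decrease was -1.69. In SI the log2 fold change was -0.36 (SE 0.28, edgeR adjusted p = 0.291). The changes differed between the regions by 0.76 (SE 0.42, edgeR adjusted p = 0.15), so a difference between the regions was not called, except without LI monolayer library 3 (1.36, edgeR adjusted p = 0.00789). SI monolayers held 2.74-fold more Isl1 than LI monolayers (edgeR adjusted p = 0.000793), and the tissues differed by 0.69 (SE 0.29, edgeR adjusted p = 0.0542).

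Pax6 (ENSMUSG00000027168.21, chr2:105668900-105697364, plus strand), a paired-box factor that activates hormone genes such as that of proglucagon, was not called in culture in either region. It had 122, 126 and 97.8 normalized counts in SI tissue and 122.9, 144 and 159 in SI monolayers. LI tissue had 61.1, 63.2 and 76.8, and LI monolayers had 78.0, 80.3 and 47.4. Tissue and monolayers overlapped in both regions, and all SI libraries were above all LI libraries. The log2 fold change in culture was 0.34 in SI (SE 0.23, edgeR adjusted p = 0.231) and 0.08 in LI (SE 0.25, edgeR adjusted p = 0.797), and the changes differed by 0.26 (SE 0.34, edgeR adjusted p = 0.571). Pax6 was 2.11-fold higher in SI than in LI monolayers (log2 fold change 1.08, edgeR adjusted p = 0.00124), or 0.90 on the log2 scale without LI monolayer library 3. In tissue the log2 fold change was 0.82 (SE 0.24, edgeR adjusted p = 0.00868), short of the fold minimum. Pax6os1 overlaps Pax6 on the opposite strand without shared exon bases and had at most 11.7 normalized counts.

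Pax4 (ENSMUSG00000029706.15, chr6:28442334-28449353, minus strand), a paired-box factor of early endocrine precursors, had at most 40 deposited counts in a library. SI tissue had 32.9, 24.0 and 39.1 normalized counts and SI monolayers 15.4, 8.01 and 18.2. LI tissue had 16.9, 33.9 and 25.0, and LI monolayers had 29.8, 32.1 and 9.88. SI monolayers were below SI tissue without overlap, and all other pairs of groups compared here overlapped. The log2 fold change in SI was -1.17 (SE 0.50, edgeR adjusted p = 0.0552). The call varied with the processing: the adjusted p lay under 0.05 with 6 of the 19 alternatives, and over all of them it ranged from 0.0352 to 0.198. In LI the log2 fold change was -0.04 (SE 0.49, edgeR adjusted p = 0.954), and the difference between the regions was -1.13 (SE 0.70, edgeR adjusted p = 0.203). The tissues differed by 0.38 (SE 0.48, edgeR adjusted p = 0.538) and the monolayers by -0.75 (SE 0.51, edgeR adjusted p = 0.236).

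Other genes of the endocrine pathway were examined in 5 lists. Over all tested genes, 14.5% were called higher and 23.5% lower in LI monolayers against tissue, and 9.71% and 16.4% in SI. Of 12 further genes of the granin family and the secretory granule, 5 were called higher and 1 lower in LI monolayers against LI tissue, and 1 higher and 1 lower in SI. In LI the prohormone Vgf (log2 fold change 2.97, edgeR adjusted p = 1.77e-07), the granule membrane protein Ptprn (2.31, edgeR adjusted p = 6.93e-08) and secretogranin III, Scg3 (1.46, edgeR adjusted p = 6.68e-06) rose. In SI the granule calcium sensor Syt7 rose (1.15, edgeR adjusted p = 2.04e-08) and Pcsk1n, an inhibitor of a prohormone convertase, fell (-1.11, edgeR adjusted p = 0.00232). The median log2 fold change of the list was 0.69 in LI and 0.19 in SI, beside -0.05 over all tested genes in each.

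Of 15 genes of serotonin and monoamine handling, 4 were called higher and 4 lower in LI, and 2 higher and 2 lower in SI, with medians of -0.45 and -0.05. As many genes of the list rose as fell in each region. The shares of all tested genes were 14.5% higher and 23.5% lower in LI, and 9.71% and 16.4% in SI. Slc6a4, the serotonin reuptake transporter, fell in both regions, from 7489 ± 1260 to 757 ± 39.5 normalized counts in SI (log2 fold change -3.27, edgeR adjusted p = 5.86e-10) and from 1333 ± 187 to 75.1 ± 13.4 in LI (-4.11, edgeR adjusted p = 1.89e-10). Adra2a, the alpha-2A adrenergic receptor, fell in SI (-1.76 on the log2 scale, edgeR adjusted p = 0.000178) and in LI (-4.52, edgeR adjusted p = 2.76e-07). Gch1, the first enzyme in the synthesis of the Tph1 cofactor tetrahydrobiopterin, rose in SI (1.73, edgeR adjusted p = 6.64e-11) and had -0.45 in LI. Trpa1, an irritant-sensing channel of enterochromaffin cells, rose from between 0 and 1.83 normalized counts in the tissue of LI to between 6.89 and 15.8 in its monolayers (edgeR adjusted p = 0.000124), against 219 to 366 in SI tissue.

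Of 16 other endocrine transcription factors, 14 were tested. There 3 were called higher and 1 lower in LI, and 1 higher and 2 lower in SI, with medians of 0.33 and -0.23. Among all tested genes, the shares were 14.5% higher and 23.5% lower in LI, and 9.71% and 16.4% in SI. Insm1, a zinc finger factor of endocrine differentiation, rose in LI (1.38, edgeR adjusted p = 2.99e-07), as did Sox4 (1.39, edgeR adjusted p = 5.24e-11). The forkhead factor Foxa1 rose in SI (2.45, edgeR adjusted p = 4.14e-13) and in LI (1.03, edgeR adjusted p = 2.11e-09), while Foxa2 fell in LI (-1.79, edgeR adjusted p = 2.35e-08). St18 (-1.26, edgeR adjusted p = 0.000599) and Prox1 (-1.05, edgeR adjusted p = 0.000165) fell in SI.

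Of 8 genes in a list of secretory lineage choice and its repressors, 6 fell and 0 rose in LI, while 3 fell and 0 rose in SI. Of all tested genes, 14.5% were called higher and 23.5% lower in LI, and 9.71% higher and 16.4% lower in SI. The list medians were -2.02 in LI and -0.60 in SI. Atoh1, the factor that commits progenitors to the secretory lineages, had a log2 fold change of -2.81 in LI (edgeR adjusted p = 1.9e-08) and -0.55 in SI, which was not called. Gfi1 fell in LI (-3.30, edgeR adjusted p = 2.47e-10) and in SI (-1.03, edgeR adjusted p = 7.31e-05), and so did Klf4, a factor of goblet cells (-3.13, edgeR adjusted p = 7.67e-15, and -1.73, edgeR adjusted p = 1.05e-11), and the Notch ligand Dll4 (-1.98, edgeR adjusted p = 1.05e-10, and -1.14, edgeR adjusted p = 8.63e-08). Neurog3 fell in LI as most of this list did, and a link between them was not tested. Of the 9 gut peptide hormones tested, 3 were called higher and 0 lower in LI, and 2 higher and 2 lower in SI. Cck, cholecystokinin, rose in LI (3.999, edgeR adjusted p = 1.89e-06) and in SI (1.42, edgeR adjusted p = 0.00101), and Gcg, proglucagon, rose in both (2.20, edgeR adjusted p = 1.79e-11, and 2.25, edgeR adjusted p = 4.23e-11). Sct, secretin, fell in SI (-2.03, edgeR adjusted p = 1.07e-07), and Nts, neurotensin, rose in LI (2.18, edgeR adjusted p = 0.00173) and fell in SI (-1.23, edgeR adjusted p = 0.028).

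**Figure D4:**
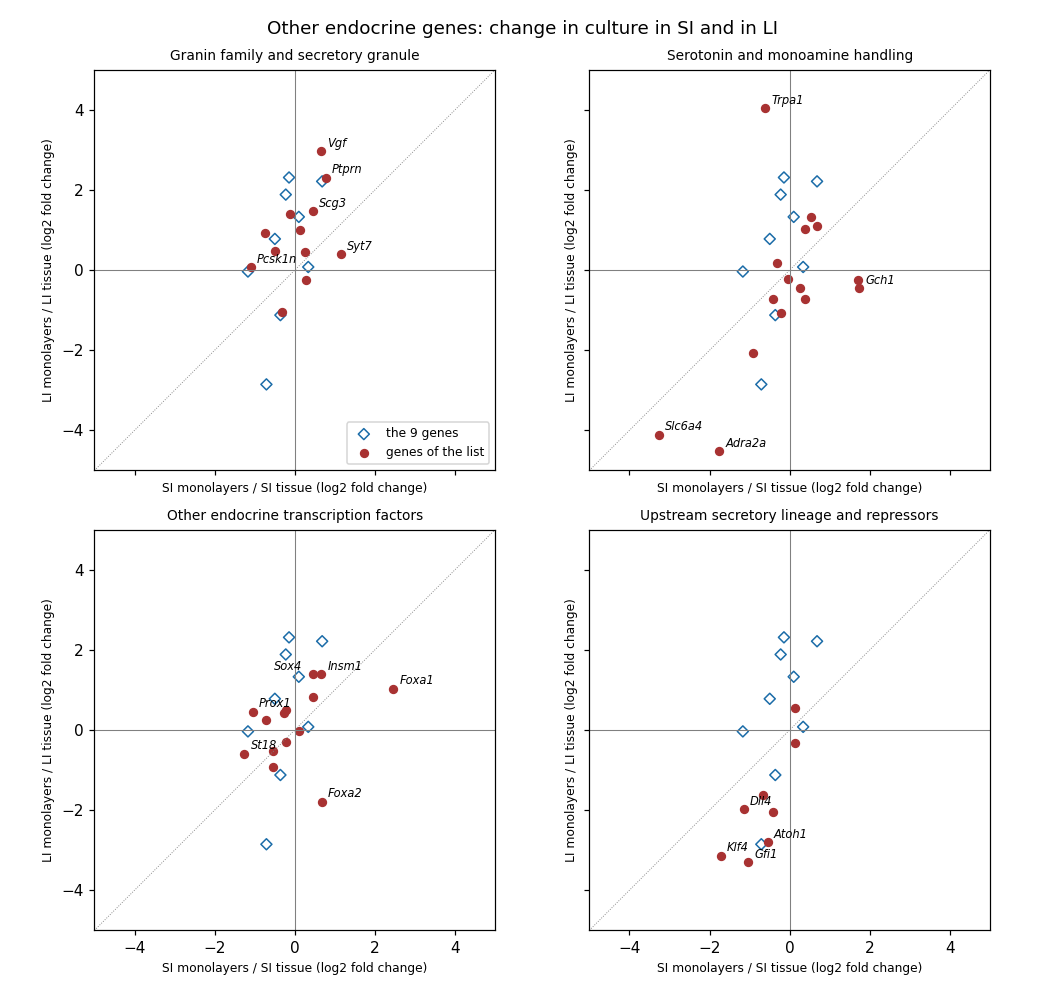
Log2 fold change in SI (monolayers against tissue, horizontal axis) against that in LI (vertical axis) for the genes of 4 lists (filled) and the 9 genes (open diamonds, the same in each panel), with the dotted line marking equal change. Most genes of the secretory granule list lie above the line and most genes of the secretory lineage list lie below it, with medians of 0.69 and -2.02 in LI.

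Genes of other cell types in the preparations changed too, and their part in the results was not tested. Over all tested genes, 14.5% were called higher and 23.5% lower in LI monolayers against tissue, and 9.71% and 16.4% in SI. Of 10 enteric neuron markers, 7 were tested: 2 fell in SI, 1 fell in LI and 0 rose. Their summed level was 2.83 to 8.87 CPM in all libraries of the 4 groups. Of 5 enteric glia markers tested, 1 rose in LI and none of the others was called, with 157.7 to 292.8 CPM in all libraries, of which Erbb3, which the epithelium also expresses, took the largest part. Of 10 mesenchymal markers, 1 fell in SI (18.7 to 45.3 CPM in tissue, 22.4 to 32.4 CPM in monolayers), and 3 rose and 3 fell in LI, where the summed level was 45.9 to 80.7 CPM in tissue and 62.9 to 86.8 CPM in monolayers. Of 10 immune markers, 8 fell in SI and 9 in LI, from 465 to 581 CPM in tissue to 52.1 to 57.4 CPM in monolayers in SI, and from 54.9 to 90.2 to 3.87 to 5.98 CPM in LI. All 6 tuft cell markers fell in both regions, to 29.0 to 31.9 CPM in SI monolayers and 6.42 to 7.65 CPM in LI monolayers, and Chat, which stands on the neuron list too, was among them. The 8 epithelial markers took 13099 to 14342 CPM in SI tissue and 27197 to 28005 CPM in SI monolayers. In LI they took 22030 to 22360 CPM in tissue and 35304 to 36421 CPM in monolayers. Of the 8, 4 rose and 0 fell in SI, while 3 rose and 1 fell in LI.

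The tested genes whose pattern over the 12 libraries lay nearest to each member were found by the root mean square difference between log2 CPM values after each gene was centred on its mean, among 13469 other genes (13470 for Pax4) with a mean of at least 1 CPM. For Chga these were Ehd1 (0.21) and Lpin2 (0.23), for Chgb AC100212.9 (0.18) and Agrn (0.21), and for Tph1 Rmdn2 (0.24) and Fam214b (0.24). For Neurog3 they were Slc3a1 (0.26) and Pfkfb4 (0.32), for Neurod1 Myo7b (0.20) and Pls1 (0.21), and for Pax4 Gm37494 (0.42) and Bnip2 (0.43). For Pax6 the nearest was Psmg3 (0.20). The nearest were, for Nkx2-2, Tjap1 (0.22) and Slc25a37 (0.25), and, for Isl1, Osgepl1 (0.26) and Cradd (0.27). The median candidate differed from its member by 0.65 to 1.78 on this scale. None of the 9 genes was among the nearest pair of another, and the libraries share their depth and groups, so this is a description only.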

How the data were processed

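Total RNA of 12 libraries was sequenced. Per the labels and methods, the authors aligned reads to GRCm38 with STAR 2.7.9a and counted them on GENCODE genes with featureCounts 2.0.2. The authors deposited a table of raw counts per gene and a table of normalized signal, in which the counts are divided by a DESeq2 size factor. Strand and mate settings are not given in the sources used here. Counts were tested with edgeR 4.0.16 (TMM scaling, filterByExpr, robust quasi-likelihood fit) in 1 model with a mean for each of the 4 groups. Benjamini-Hochberg adjustment ran over 19581 genes within each of 5 comparisons. On simulated counts for SI monolayers against SI tissue (18890 genes), 200 of 200 changed genes were recovered and 1 unchanged gene was called. Recovery was not split by count level or by fold. It was not tested for genes with as few counts as Pax4, or as Neurog3 in LI monolayers, nor for folds near the minimum. TPM used merged exon lengths of GENCODE on GRCm38. Promoters and starts are from RefSeq (GRCm38.p6), with 8 of 9 members matched.

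The members, lists and tests were chosen with earlier results of these data known. Named are all members, up to 3 called genes with the largest change per list and culture comparison, the 2 nearest patterns of each member, and genes overlapping a member. A second nearest pattern of Pax6 and 1 cell type marker are not reported here. Foxa1, Dll4 and Nts are also described in the comparison where the rule did not name them, and single markers of other cell types were named after their values were seen. Alternatives were DESeq2 1.42.0, limma-trend (limma 3.58.1, pseudocount 1) on the normalized values, upper quartile scaling, no filter, a minimum of 10 counts, no fold minimum, halved counts, a fit to only the groups compared, a block for the replicate number, and each library left out. Same-numbered libraries were not paired by the labels. Per the methods, the large intestine for monolayers was taken from the mice that gave the jejunum, so SI and LI libraries may share mice. Which libraries share a mouse is not stated, and the tests treated all libraries as independent.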

Additional observations from a re-analysis of the deposited data

Results flagged for a closer look

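The change in culture differed between SI and LI, by the interaction term of edgeR's quasi-likelihood fit (adjusted p under 0.05 and an absolute value of at least 1), for 6 of the 9 genes and for 16 of the 23 genes named from the lists. Of all tested genes, 11.4% were called higher and 8.51% lower in this term. Values are the log2 change in SI minus that in LI. Among the 9 genes it was -2.45 for Chga, -1.53 for Chgb, -2.11 for Tph1, -1.28 for Neurod1, -1.23 for Nkx2-2 and 2.14 for Neurog3. In the secretory granule list it was -1.17 for Pcsk1n, -2.31 for Vgf, -1.53 for Ptprn and -1.02 for Scg3. In the serotonin list it was 2.76 for Adra2a, 2.18 for Gch1 and -4.65 for Trpa1, a fitted value that depends on the prior count because LI tissue held 0 to 1.83 normalized counts of it. Among the other transcription factors it was 1.43 for Foxa1, -1.502 for Prox1 and 2.47 for Foxa2. In the secretory lineage list it was 1.41 for Klf4, 2.27 for Gfi1 and 2.26 for Atoh1. Among the hormones it was -1.05 for Sct, -2.57 for Cck and -3.41 for Nts. The genes from the lists had been named for a large change in culture, and without SI tissue library 1 the value of Neurod1 was -0.99, under the fold minimum. That of Nkx2-2 lost its call without SI monolayer library 1 (-0.99, edgeR adjusted p = 0.0501) and without LI monolayer library 1 (-0.88, edgeR adjusted p = 0.0619). Groups of 3 libraries were too small to test single libraries as outliers.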

How the results depend on the processing

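Of 926 values under alternatives, 889 kept their direction and their side of the threshold, 18 turned direction, 11 gained a call and 8 lost one. Many of these values could hardly change, so the totals overstate how firm the results are. With no fold minimum the log2 fold change is that of the main fit, and many left-out libraries belong to groups outside the comparison. In SI monolayers against SI tissue the number of the 9 genes called was 0, but 1 (Pax4) with upper quartile scaling, halved counts, limma-trend or only the groups compared, 2 with no fold minimum (Chgb and Neurog3), and 0 to 1 with each library left out. Leaving out each library gave 5 to 6 called genes in LI monolayers against LI tissue, 3 to 5 between tissues (3 without SI tissue library 1), 4 to 5 between monolayers and 5 to 7 for the interaction. With the replicate block the counts were 0, 6, 5, 5 and 6, the same as without it. Deviations of same-numbered libraries correlated at -0.05 to 0.06, so the numbers were not read as pairs. This does not show that SI and LI libraries came from different mice.

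Directions turned only for log2 fold changes that were not called. For Pax6 in LI it was -0.041 with upper quartile scaling and -0.00188 with the minimum of 10 counts. For Nkx2-2 between monolayers it was -0.027 with DESeq2 and without a filter, -0.030 with the minimum of 10 counts, -0.00513 with halved counts and -0.00246 with limma-trend. With each library left out, values ranged from -0.31 to 0.090 for Chga in SI, -0.37 to 0.065 for Tph1 in SI, -0.026 to 0.26 for Nkx2-2 in SI, -0.36 to 0.27 for Pax4 in LI, -0.12 to 0.21 for Pax6 in LI and -0.12 to 0.27 for Nkx2-2 between monolayers. The cause was not tested. The minimum of 10 counts removed Neurog3 and Pax4, and the interaction could not be fitted with only the groups compared. Neurog3 in LI monolayers rests on 5 to 8 counts a library.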
